A study of Mus musculus with 12 samples.

Results

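Lines with knockdown of either of 2 protein arginine methyltransferases, PRMT1 or PRMT8, were compared as 1 arm with both control lines as the other, to describe the response that the knockdown lines shared. A gene was counted as separated where all 6 knockdown arrays read above, or all 6 read below, every one of the 6 control arrays. Of 14953 genes tested, 2474 were separated, 1055 of them higher and 1419 lower in the knockdown lines, which is 7.06% and 9.49% of the genes. That balance depended on scaling: 1545 were higher and 1187 lower after quantile normalisation, and 2165 and 968 after the arrays were centred on their medians. Separated genes were chosen by these values, so their own differences are a description. Among the gene lists examined, the largest shares of separated lower genes were in those of Hox genes, synapses, channels, astrocytes and axons. The higher genes held 25 of the 36 DNA replication genes, 38 of 80 ribosome assembly genes, Lin28a and Lin28b. In a fit without the filter on level, most hairpin genes of 3 miRNA clusters were separated higher as well.

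D3, a line of mouse embryonic stem cells, was turned into neurons through embryoid bodies. Cells taken on day 16 were measured on 12 single-colour whole-transcript arrays. The control arm held unmodified D3 cells and siSCR, a D3 derivative that carries a scrambled sequence. The knockdown arm held siPRMT1 and siPRMT8, D3 derivatives with knockdown of Prmt1 or of Prmt8. Each group had 3 biological replicates. Each group was also 1 cell line, so an arm held 2 lines and the effect of a knockdown cannot be told apart from the history of its line. Whether replicates were separate differentiations is not stated in the labels, and the p-values below cover only the variation among these 12 samples. With 2 lines against 2 there are 6 ways to split the lines, and an exact permutation test over lines cannot go below p = 0.333.

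PRMT1 is the main enzyme that places asymmetric dimethyl marks on arginines of histones and of RNA-binding proteins. PRMT8 is its close relative, is anchored to membranes by a lipid at its start, and is found mainly in brain. Cultures made this way pass from pluripotent cells through radial glia to neurons, with some glia beside them.

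The arrays did not all lie with their arm. On the first principal component, which held 61.4% of the variance, the knockdown arrays lay between 13.6 and 25.7. The D3 arrays and siSCR replicates 2 and 3 lay between -26.2 and -21.6, whereas siSCR replicate 1 lay at 0.105. This array was the control nearest to the knockdown arm for 54.7% of the separated higher genes and 70.9% of the separated lower genes. Without it 3976 genes were separated, 1775 higher and 2201 lower. Leaving out arrays can only keep or raise a count of separated genes, here and in the lists below, so such gains are a description. siPRMT1 replicate 2 stood apart on the second component, at -17.6 against 20.1 and 10.3 for the other siPRMT1 arrays. Without it 3109 genes were separated.

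**Figure D1:**
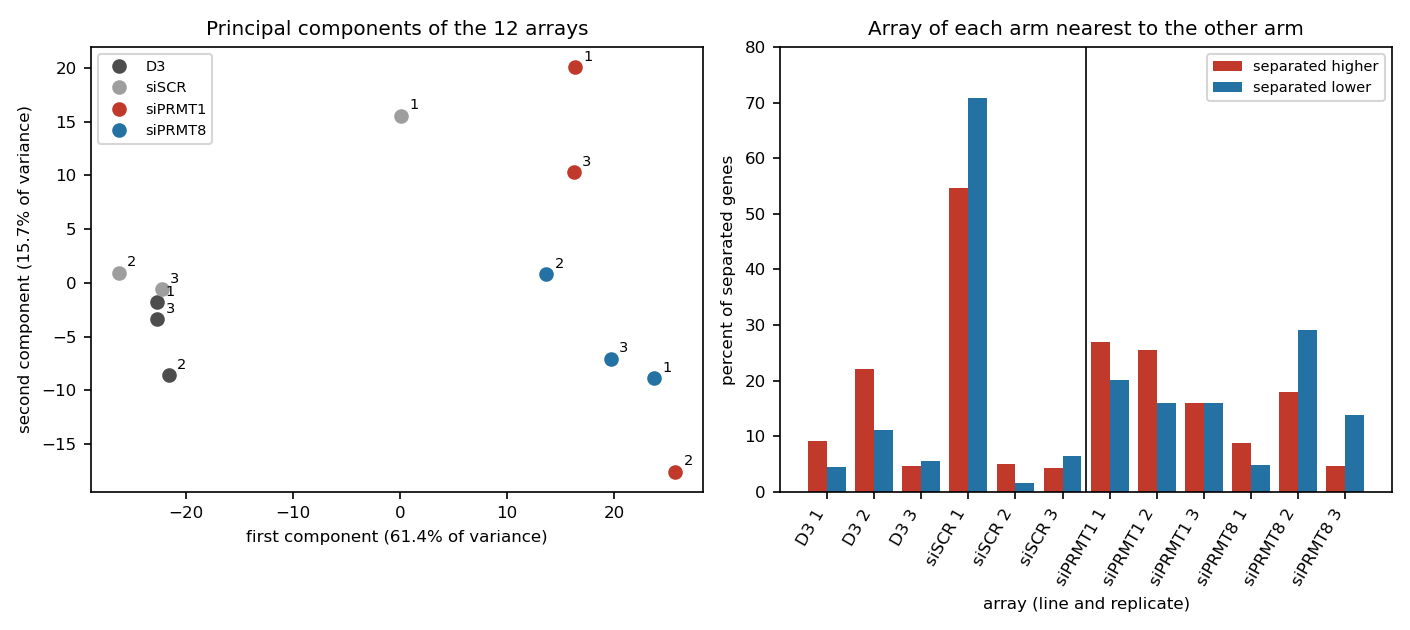
Left, the 12 arrays on the first and second principal components of the tested genes, coloured by line and numbered by replicate. Right, the percent of separated genes for which each array was the one of its arm nearest to the other arm; siSCR replicate 1 takes 54.7% of the higher and 70.9% of the lower genes.

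The targeted genes were read first. Prmt1 was 7.59 to 7.95 (log2 array value) on the siPRMT1 arrays, 9.20 to 9.27 on the siPRMT8 arrays and 8.69 to 8.87 on the controls. It was thus below all controls in its own knockdown and above all controls in the other, and it was not a shared change. The siPRMT8 minus siPRMT1 difference of Prmt1 was 1.49 ± 0.09 (log2, SE; limma adjusted p = 2.36e-05). Prmt8 was 6.17 to 6.44 on the siPRMT8 arrays and 6.35 to 6.89 on the siPRMT1 arrays, against 7.37 to 7.41 in D3 and 6.60 to 7.18 in siSCR. Its pooled difference was -0.68 ± 0.11 (limma adjusted p = 0.00062), and siPRMT1 replicates 2 and 3 overlapped siSCR replicate 1. The siPRMT8 minus siPRMT1 difference of Prmt8 was -0.29 (95% interval -0.63 to 0.06; limma adjusted p = 0.489), so Prmt8 was not shown to be lower in its own knockdown than in the other.

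The labelled cell type was checked on markers. All 7 neuronal and all 4 astrocyte markers were measured, and all 11 were lower in the knockdown arm by limma, where 19.3% of all genes were. Of the 4 neural progenitor markers (Nes, Sox2, Pax6, Hes5) none passed. Among pluripotency markers, Nanog, without passing, read 10.37 to 11.23 on knockdown arrays against 10.85 to 11.11 on controls, and Pou5f1 was higher by 0.34 ± 0.08 (limma adjusted p = 0.00453). All 5 mesenchyme markers were lower, by 0.14 to 1.13. Of 3 muscle markers, Myod1 and Actc1 were higher, by 0.18 and 0.48, and Tnnt2 did not pass. In bulk RNA of this kind, fewer cells of a type and less RNA per cell cannot be told apart, and the part of cell mixture in the differences below was not tested.

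The shared response was uneven in size. Among separated genes the median log2 difference was 0.28 for the higher and -0.52 for the lower ones, against 0.037 over all genes tested. Only 8 separated higher genes but 261 separated lower genes reached 2-fold. With limma, which weighs each difference against the spread within lines, 5790 genes (38.7%) passed an adjusted p of 0.05, 2897 higher and 2893 lower. Of the separated genes 2450 were among them. When a change had to exceed 1.5-fold, 8 higher and 177 lower genes passed, and with 1 mean value per line 843 higher and 1633 lower ones did. The split into higher and lower depended on scaling: 50.03% of passing genes were higher as deposited, 60.5% after quantile normalisation and 71.3% after the arrays were centred on their medians over genes, which moved the median of all genes from 0.037 to 0.109.

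The largest rise was in miRNA genes. Short hairpins in a cluster are cut from a single transcript, and the mature miRNA pairs with target messengers through its seed, bases 2 to 8. The probe sets are named for the hairpin genes, so they read the precursor or its transcript, and mature miRNAs were not measured. The sequences below, from RefSeq (GRCm38.p6), are from the 3 clusters that held separated genes. Their members share seeds, which are in capitals. The miR-106b cluster, described below, had no separated gene and is not printed, so shared seeds were not set against the rise. The miR-302 cluster lies on the plus strand at chr3:127545228-127545807, the miR-17 cluster on the plus strand at chr14:115043671-115044506 and the miR-106a cluster on the minus strand at chrX:52741693-52742567.
miR-302b-3p: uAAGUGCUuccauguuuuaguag
miR-302d-3p: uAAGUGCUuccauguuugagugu
miR-302c-3p: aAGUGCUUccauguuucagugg
miR-17-5p: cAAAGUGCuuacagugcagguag
miR-20b-5p: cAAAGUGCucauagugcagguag
miR-106a-5p: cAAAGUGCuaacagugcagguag
miR-18a-5p: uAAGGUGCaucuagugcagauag
miR-18b-5p: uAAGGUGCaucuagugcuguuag
miR-19a-3p: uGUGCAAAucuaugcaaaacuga
miR-367-3p: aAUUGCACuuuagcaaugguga
miR-363-3p: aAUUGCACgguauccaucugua
miR-92a-3p: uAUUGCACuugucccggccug

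The seed AUUGCAC occurs in all 3 clusters, as miR-367, miR-363 and miR-92a. The seed AAAGUGC joins miR-17, miR-20b and miR-106a across the latter 2 clusters, and miR-18a and miR-18b share AAGGUGC. The words of the miR-302 members overlap the AAAGUGC seed in their letters but are shifted along the molecule.

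All 5 measured hairpin genes of the miR-302 cluster, which also holds Mir367 and is known for its activity in pluripotent and epiblast cells, were higher and separated. These lists were drawn up after values had been seen, many of their probe sets lie below the level filter, and they were therefore read from a fit of all 19938 genes, in which 15.0% of genes were higher and 5.59% separated higher. Mir302a read 4.04 to 7.30 (median 5.97) on the knockdown arrays and 3.04 to 3.56 (median 3.30) on the controls. Mir302d read 5.48 to 8.01 (median 6.82) against 4.13 to 4.78 (median 4.53). Every knockdown array lay above every control, but the knockdown arrays were far apart from each other. siPRMT1 replicate 1 was the lowest for all members, with a median deviation of 0.65 over the cluster, and siPRMT8 replicate 3 the highest, with 3.51. The pooled differences ran from 1.47 ± 0.26 for Mir367 (limma adjusted p = 0.00114) to 2.61 ± 0.38 for Mir302a (limma adjusted p = 0.00035). siSCR replicate 1, which lay toward the knockdown arm on the first component, did not do so here, at a median deviation of 0.02.

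In the miR-17 cluster, known as a growth-promoting cluster, all 6 measured genes were higher and 5 were separated. Its host transcript Mir17hg read 7.44 to 7.97 on the knockdown and 6.81 to 7.16 on the control arrays, a difference of 0.78 ± 0.10 (limma adjusted p = 0.000154). Mir17 itself, with 0.32, overlapped the controls. The related miR-106a cluster on the X chromosome had 5 of 5 genes higher and 4 separated. Mir363 led it, at 6.40 to 7.19 (median 6.79) against 4.77 to 5.61 (median 5.13), which is 1.65 ± 0.13 (limma adjusted p = 2.19e-05). The third cluster of that family, miR-106b, lies in an intron of Mcm7. Its 3 genes were higher by 0.19 to 0.31 and none was separated. Of 12 miRNA genes known from neurons or their glia, 4 were lower, against 14.2% of all genes in that fit, and 2 higher; 3 were separated lower, against 7.28%. Mir137 read 4.09 to 4.53 against 5.05 to 5.52 and Mir9-1 read 5.19 to 5.71 against 5.89 to 6.05, both separated lower. The let-7 genes, whose maturation Lin28 proteins block, did not move together. Of 10 measured, Mirlet7d and Mir98 were higher and Mirlet7c-1 was lower, against 15.0% and 14.2% of all genes in that fit. Separated were 2 higher, against 5.59% of all genes, and 0 lower, against 7.28%.

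**Figure D2:**
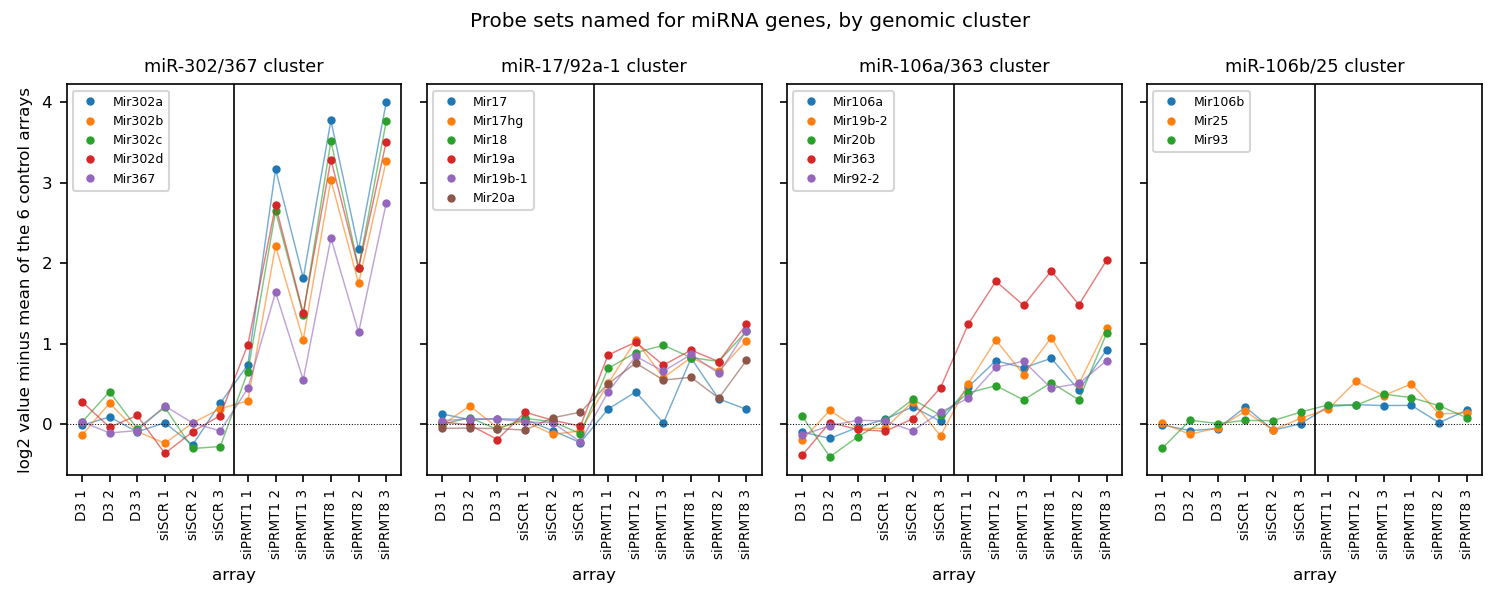
Log2 value of each probe set named for a miRNA gene minus the mean of the 6 control arrays, by array, for 4 clusters; the vertical line divides control from knockdown arrays. The miR-302 genes spread widely over the knockdown arrays, whereas miR-106b differs by 0.19 to 0.31.

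Among protein-coding genes the largest separated rise was that of Prtg, protogenin, a DCC-family receptor of the early neural tube. It read 8.29 to 10.18 (median 9.31) on the knockdown and 6.98 to 8.27 (median 7.36) on the control arrays, with siPRMT1 replicate 1 and D3 replicate 2 only 0.02 apart. The pooled difference was 1.82 ± 0.26 (limma adjusted p = 0.000296), or 3.53-fold. The list of DCC-family receptors and early neural tube genes, Prtg included, did not follow it as a group. Of 14 genes 4 were higher and 8 lower, against 19.4% and 19.3% of all genes, with a median of -0.27. Separated were 3 lower and 2 higher, against 9.49% and 7.06% of all genes, and without siSCR replicate 1, 7 were separated lower. Igdcc3, close in structure to Prtg, was higher by 0.73, while the ligand Ntn1 was separated lower by 0.87, at 8.46 to 8.91 against 9.405 to 9.63.

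Several other separated higher genes are known from early embryos. Lin28a, an RNA-binding protein that blocks let-7 maturation, read 7.64 to 8.68 (median 8.02) against 6.98 to 7.19 (median 7.08), a difference of 0.95 ± 0.14 (limma adjusted p = 0.000271). Its paralog Lin28b was higher by 0.65. Dnmt3b, a de novo DNA methyltransferase, read 8.58 to 9.11 against 7.50 to 7.98, with 1.16 ± 0.10 (limma adjusted p = 2.71e-05). Fgf5, a growth factor of the epiblast, was higher by 0.92, the forkhead factor Foxi3 by 1.08 and the kinase Pim2 by 1.47. Of the 29 tested genes of the pluripotency and Lin28 list 10 were higher, 1 was lower and 3 were separated higher, against 19.4%, 19.3% and 7.06% of all genes, and the median was -0.08. The median turned to 0.08 without siPRMT1 replicate 2 and to 0.07 with D3 as the only control, and 7 genes were separated higher without siSCR replicate 1. Dnmt3l spread widely within the knockdown arm, from 6.40 to 9.65, and did not pass (-1.24, limma adjusted p = 0.0627).

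The clearest gap among the higher genes belonged to Map7d3, of the MAP7 family of microtubule-binding proteins. Its 6 knockdown values fell within 8.19 to 8.32 and its controls within 6.91 to 7.39, so the closest arrays were 0.80 apart, the widest margin of any separated higher gene. Trh, the precursor of thyrotropin-releasing hormone, read 10.57 to 11.14 against 9.18 to 9.85, with 1.46 ± 0.13 (limma adjusted p = 2.58e-05). Hmcn1, an extracellular matrix protein, was higher by 0.90, and its 77 probe sets all pointed upward, with a median of 0.57. Such margins were rare among the higher genes, for which the median margin was 0.058 and 8 exceeded 0.5.

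**Figure D3:**
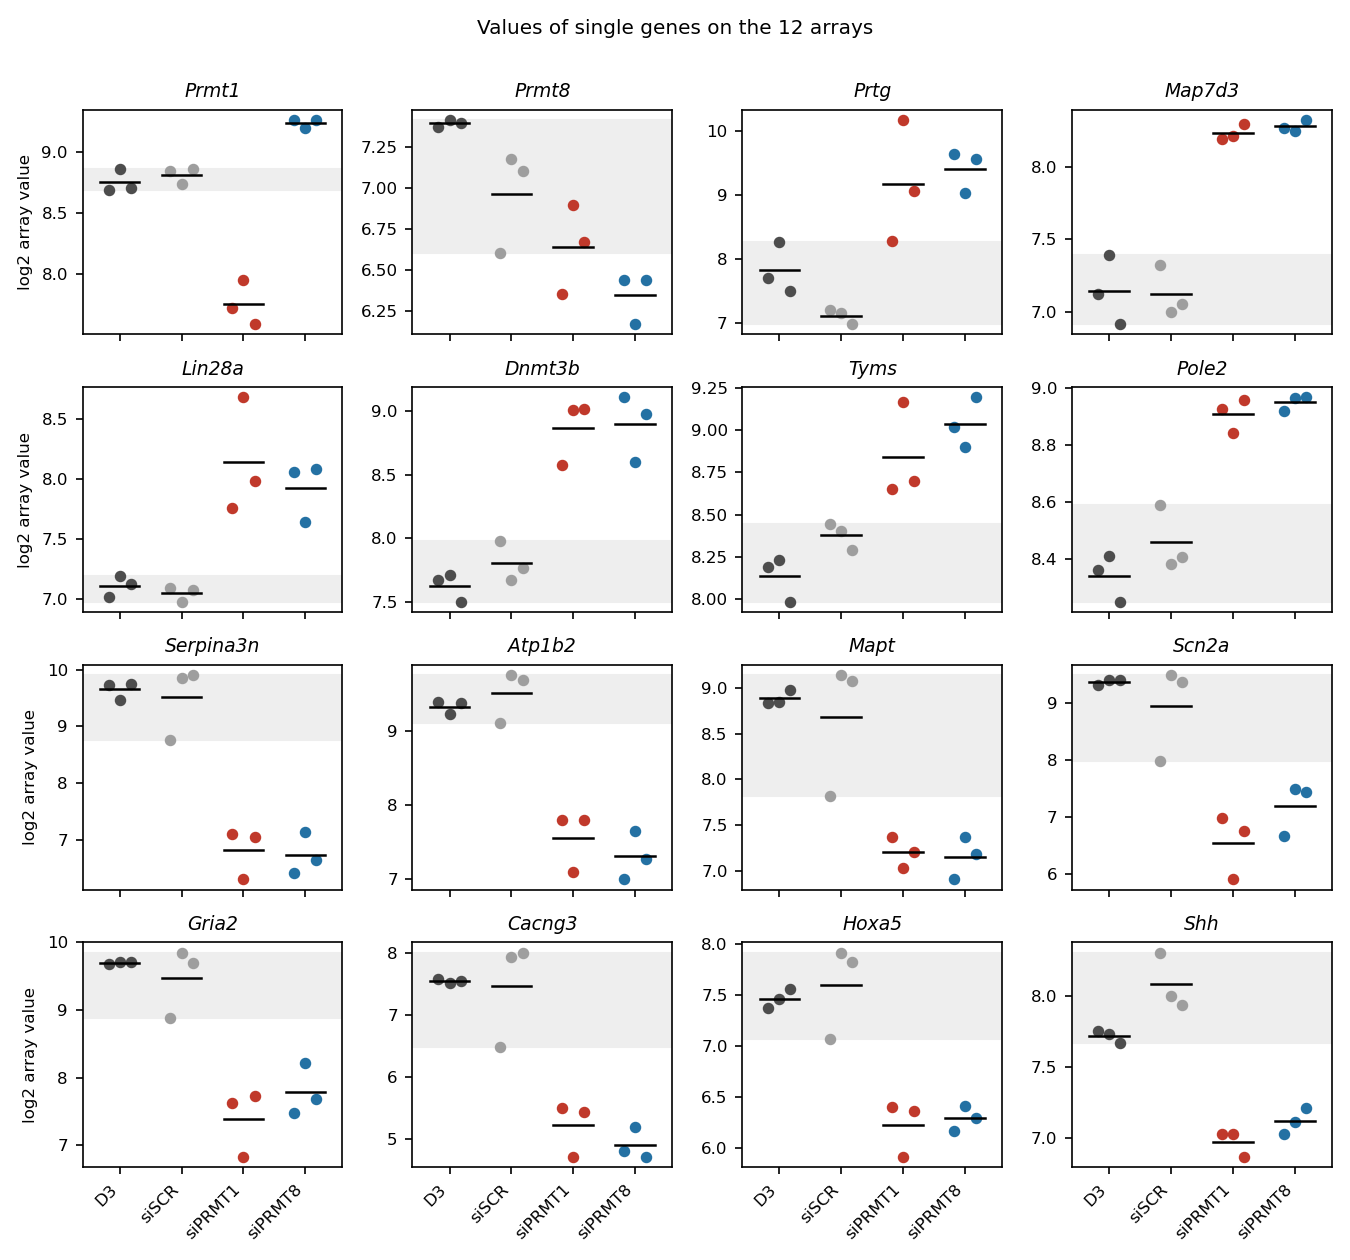
Log2 array values of 16 genes on all 12 arrays by line, 3 points per line; black bars are line means and the grey band spans the 6 control values. Prmt1 moves in opposite directions in the knockdown lines, and for 14 of the other 15 genes, all but Prmt8, every knockdown point lies outside the grey band.

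Smaller but more uniform was the rise of the DNA replication genes. All 36 tested members passed as higher and 25 (69.4%) were separated, where 19.4% and 7.06% of all genes did, and the list's median was 0.36. They cover the replicative helicase (Mcm2, Mcm5, Mcm7, Cdc45), the polymerases (Pola1, Pole, Pole2), the clamp and its loader (Pcna, Rfc3, Rfc4), flap removal (Fen1) and nucleotide supply (Tyms, Tk1, Rrm1). Tyms, thymidylate synthase, read 8.65 to 9.19 (median 8.96) against 7.98 to 8.44 (median 8.26), a difference of 0.68 ± 0.09 (limma adjusted p = 0.000188). Pole2 read 8.84 to 8.97 against 8.25 to 8.59, and the clamp Pcna read 11.15 to 11.43 against 10.85 to 11.01. Lig1 was the smallest, at 0.14. Without siSCR replicate 1, 35 of the 36 were separated. With 1 mean value per line 25 passed as higher, with siSCR as the only control 27, and past 1.5-fold 0.

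Genes of mitosis moved less. Of 37 tested, 20 were higher and 6 separated, where 19.4% and 7.06% of all genes were, with a median of 0.21. The separated genes numbered 18 without siPRMT1 replicate 2, 12 after quantile normalisation and 11 after median centring. With 1 mean value per line 5 were higher. Cdk1, the kinase that starts mitosis, read 10.44 to 10.82 against 10.32 to 10.41, with 0.27 ± 0.06 (limma adjusted p = 0.00588). The general proliferation markers Mki67 (0.13), Top2a (0.07) and Ccna2 (0.01) did not pass. Ccne2, a cyclin E that acts at the entry to S phase, was higher by 0.41.

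Ribosome assembly genes, a list added after the values had been seen, resembled the replication genes. Of 80 tested, 67 were higher, none lower and 38 separated higher, with a median of 0.32. Of all genes 19.4% were higher and 7.06% separated higher. Taf1d, a subunit of the polymerase I initiation factor, read 11.32 to 11.61 against 10.83 to 11.14, the polymerase I subunit gene Polr1e was higher by 0.49 and the rRNA methyltransferase gene Nop2 by 0.46. Without siSCR replicate 1, 60 were separated. With 1 mean value per line 46 were higher, with siSCR as the only control 52, and past 1.5-fold 0.

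Promoters were searched for words bound by E2F, the factor family that drives S-phase genes. The words TTTCCCGC, TTTCGCGC, TTTGCCGC and TTTGGCGC were sought on both strands in the 250 bases before each annotated start (RefSeq, GRCm38.p6). They occurred in 9 of 37 promoters (24.3%) of the replication genes, of which 32 of 36 had a promoter in the table. The share was 2.97% over all promoters of tested genes, 6.88% for separated higher and 2.29% for separated lower genes. The mitosis list had 3.23% and the added ribosome list 4.94%. Words for 4 other motifs were searched in the same way: the E-box CACGTG, the CRE word TGACGTCA, the NRF1 word and the TATA word TATAAA. In the replication list they occurred in 5, 1, 0 and 2 of 37 promoters, against 7.91%, 2.41%, 1.43% and 6.87% of all. In the axon list TATAAA occurred in 23.1% and the E-box in 0%. None of these shares was tested. A match is a word in a window and not a shown binding site. The promoters of Pola1, Rfc3 and Mcm7, separated genes of the replication list, are shown with the match in capitals; all are on the minus strand, at chrX:93632156-93632405, chr5:151651209-151651458 and chr5:138171884-138172133.
Pola1: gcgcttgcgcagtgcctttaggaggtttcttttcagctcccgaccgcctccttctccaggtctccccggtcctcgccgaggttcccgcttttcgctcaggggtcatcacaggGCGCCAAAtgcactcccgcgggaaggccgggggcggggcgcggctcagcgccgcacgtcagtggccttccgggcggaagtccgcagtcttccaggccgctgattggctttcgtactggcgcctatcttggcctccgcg
Rfc3: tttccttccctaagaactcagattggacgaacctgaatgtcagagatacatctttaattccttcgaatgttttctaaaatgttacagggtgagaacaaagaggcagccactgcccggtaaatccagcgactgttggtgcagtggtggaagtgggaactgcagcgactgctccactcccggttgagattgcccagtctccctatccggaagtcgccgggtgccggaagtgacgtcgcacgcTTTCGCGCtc
Mcm7: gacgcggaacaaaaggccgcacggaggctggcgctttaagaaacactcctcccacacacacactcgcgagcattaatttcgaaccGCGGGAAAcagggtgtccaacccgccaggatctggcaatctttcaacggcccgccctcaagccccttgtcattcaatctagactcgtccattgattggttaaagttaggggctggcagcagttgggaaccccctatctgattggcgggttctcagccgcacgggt

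The match begins 138 bases before the start in Pola1, 10 in Rfc3 and 165 in Mcm7. Their values were higher by 0.48, 0.48 and 0.41.

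The list of arginine methyltransferases and their partners was divided, with 6 of 14 higher and 5 lower, against 19.4% and 19.3% of all genes. Its separated genes belong to the PRMT5 complex, which places symmetric rather than asymmetric dimethyl marks. Prmt5 read 10.70 to 10.89 against 10.57 to 10.69, its partner Wdr77 9.82 to 9.97 against 9.48 to 9.76, and Clns1a, which brings it Sm proteins, 9.19 to 9.45 against 8.91 to 9.07. These were the 3 separated genes of the list; without siSCR replicate 1, 5 were separated higher and 2 lower. The Prmt5 difference, 0.16 ± 0.04 (limma adjusted p = 0.00837), was the smallest of them. Prmt3 was higher by 0.33 and Prmt2 lower by 0.48. Of 23 FET, hnRNP and other arginine-rich RNA-binding protein genes, which hold many PRMT1 substrates, 14 were higher and 1 lower, against 19.4% and 19.3% of all genes, with a median of 0.16. Ewsr1, Taf15, Ncl, G3bp1, Serbp1 and Nono were the 6 separated (7.06% of all genes), by 0.15 to 0.26, and 11 were separated after median centring. With 1 mean value per line a single member of this list was higher.

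On the other side, the single largest shared fall was that of Serpina3n, a secreted protease inhibitor made by reactive astrocytes. It read 6.31 to 7.15 (median 6.85) on the knockdown and 8.76 to 9.90 (median 9.74) on the control arrays. The arms were 1.61 apart at their closest, the widest margin among all separated genes, and the difference was -2.80 ± 0.21 (limma adjusted p = 1.88e-05), or 6.96-fold. Atp1b2, a glial sodium pump subunit, read 6.99 to 7.79 against 9.11 to 9.76, the next widest margin. Slc6a11, a GABA transporter found on astrocytes, read 6.41 to 6.91 against 8.06 to 8.88, with -1.93 ± 0.13 (limma adjusted p = 1.45e-05). Spon1, a secreted matrix protein of the floor plate, was lower by 1.70 with a margin of 1.16. These genes were far below the controls on all knockdown arrays, siSCR replicate 1 included among the controls.

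The astrocyte list as a whole had 20 tested genes, of which 12 were lower, 1 higher and 11 separated lower (55%, against 9.49% of all genes), with a median of -0.53. Gfap, the astrocyte intermediate filament, read 5.87 to 6.44 against 6.66 to 8.22. Sparcl1, a secreted synapse-promoting protein, was lower by 1.82, Aldh1l1 by 1.27 and the glutamate transporter Slc1a2 by 1.08. The gap junction gene Gja1 went the other way, at 9.52 to 9.70 against 8.82 to 9.22, with 0.60 ± 0.05 (limma adjusted p = 1.88e-05). Apoe, Clu and Mlc1 were among the 7 that did not pass. In the radial glia and progenitor list 10 of 24 were lower and 4 higher, against 19.3% and 19.4% of all genes. Separated lower were 7, against 9.49%, led by Ptprz1 (-1.28) and Id4 (-1.18), while Sox1, Sox3, Lhx2 and Prom1 were higher by 0.28 to 0.39. Of 14 oligodendrocyte lineage genes 4 were lower and 3 higher, against 19.3% and 19.4% of all genes. Separated were 3 lower and 1 higher, against 9.49% and 7.06%. Olig1 and Olig2 were separated lower by 0.60 and 0.66, while Pdgfra and Sox10 did not pass. The list had a median of -0.04, which turned to 0.03 when arrays were centred on their medians.

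Neuronal structure genes were lower almost throughout. Over all genes tested, 19.3% were lower, 19.4% higher, 9.49% separated lower and 7.06% separated higher. The counts of this list and of the synaptic, receptor, channel and neuropeptide lists below are to be read against these shares. Of 39 tested genes of cytoskeleton and axon, 36 were lower and 1 higher, 20 were separated lower (51.3%), and the median was -0.94. Without siSCR replicate 1, whose median deviation over this list was -0.70 against 0.11 to 0.20 in the other controls, 37 were separated. Mapt, the axonal microtubule protein tau, read 6.91 to 7.37 (median 7.20) on the knockdown and 7.82 to 9.14 (median 8.91) on the control arrays. Its lowest control was siSCR replicate 1, at 7.82, and the next lowest was 8.84. The difference was -1.60 ± 0.19 (limma adjusted p = 0.000107), and without that array -1.82 (limma adjusted p = 6.2e-08). The adhesion molecules Chl1 (-1.84), L1cam (-1.70) and Ncam2 (-1.65) were lower still. Nefm, a neurofilament subunit, was the exception, higher by 0.61 ± 0.19 (limma adjusted p = 0.0248) with overlapping arms, and Nefl did not pass (-0.44).

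Genes of transmitter release behaved alike. In the synaptic vesicle list 29 of 37 were lower, 1 was higher and 24 were separated lower (64.9%), with a median of -0.93. Rab3c, a vesicle GTPase, read 5.79 to 7.04 (median 6.54) against 7.52 to 8.77 (median 8.71), and was lower by 2.01 ± 0.21 (limma adjusted p = 5.67e-05). The synaptotagmin gene Syt4 was lower by 1.86, the vesicle protein genes Sv2a and Syp by 1.51 and 1.42, and all of Syn1, Syn2 and Syn3 by 1.29 to 1.42. The vesicular glutamate transporter gene Slc17a6 was lower by 1.28 with overlapping arms, and Stx1a, Cplx2 and Slc17a7 were among the 7 that did not pass.

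On the receiving side, 23 of 31 postsynaptic and adhesion genes were lower and none higher, and 18 were separated, with a median of -0.74. Lrrtm2 (-1.85) and the scaffold gene Dlg2 (-1.69) led. Of 26 glutamate receptor genes 23 were lower and 14 separated lower, or 23 without siSCR replicate 1. Gria2, the subunit that limits calcium entry through AMPA receptors, read 6.83 to 8.21 (median 7.66) against 8.87 to 9.85 (median 9.70), with -1.99 ± 0.20 (limma adjusted p = 4.26e-05). Cacng3, an auxiliary protein of these receptors, read 4.71 to 5.501 against 6.47 to 8.01 and was lower by 2.45. The NMDA receptor gene Grin2b was lower by 1.45. Grm2 was the only receptor gene higher, by 0.36, with arms 0.01 apart. Of 18 GABA genes 12 were lower and 6 separated, among them Gad2, which makes GABA, by 1.05; without siSCR replicate 1, 13 were separated.

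Channel genes were lower in 23 of 31 cases, higher in 2, and 20 were separated lower, with a median of -0.58. Scn2a, an axonal sodium channel, read 5.91 to 7.48 (median 6.87) against 7.98 to 9.48 (median 9.37). These values are of its probe set with the highest mean. All 14 of its probe sets were lower, by 0.89 to 2.28, with a median difference of -1.63. Kcnip1, an accessory protein of A-type potassium channels, was lower by 2.20. Cacnb2, a calcium channel subunit, was separated higher by 0.15, but leaving out single arrays raised its limma adjusted p above the threshold. Kcnj3, an inward rectifier, was higher by 0.67 with overlapping arms. Neuropeptide and calcium-binding genes were lower in 18 of 24 cases, with Necab1 (-2.18) and Reln (-1.89) among the 10 separated; Tac1, at -2.46, was not. Without siSCR replicate 1, 16 were separated lower. Trh and Pcsk1 were the exceptions, higher by 1.46 and 0.34.

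The fall did not extend to all neuronal genes. Of 15 genes of cholinergic, monoamine and motor neurons 4 were lower and 3 higher, against 19.3% and 19.4% of all genes. The separated ones were Isl1 and the choline transporter gene Slc5a7, both higher, where 7.06% of all genes were separated higher. Isl1, a motor neuron factor, read 6.58 to 7.01 against 6.11 to 6.38. Without siSCR replicate 1, 5 were lower and 3 higher, and 4 were separated lower and 2 higher. With D3 as the only control 4 were separated lower and 4 higher. Proneural and early neuronal factors were divided, with 7 lower, 3 higher and 12 of 22 not passing, where 19.3% of all genes were lower and 19.4% higher. Separated lower were 3, against 9.49% of all genes, or 7 without siSCR replicate 1. Myt1l, a factor of mature neurons, was separated lower by 1.56, while the proneural gene Neurod4 was higher by 0.76, with overlapping arms.

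**Figure D4:**
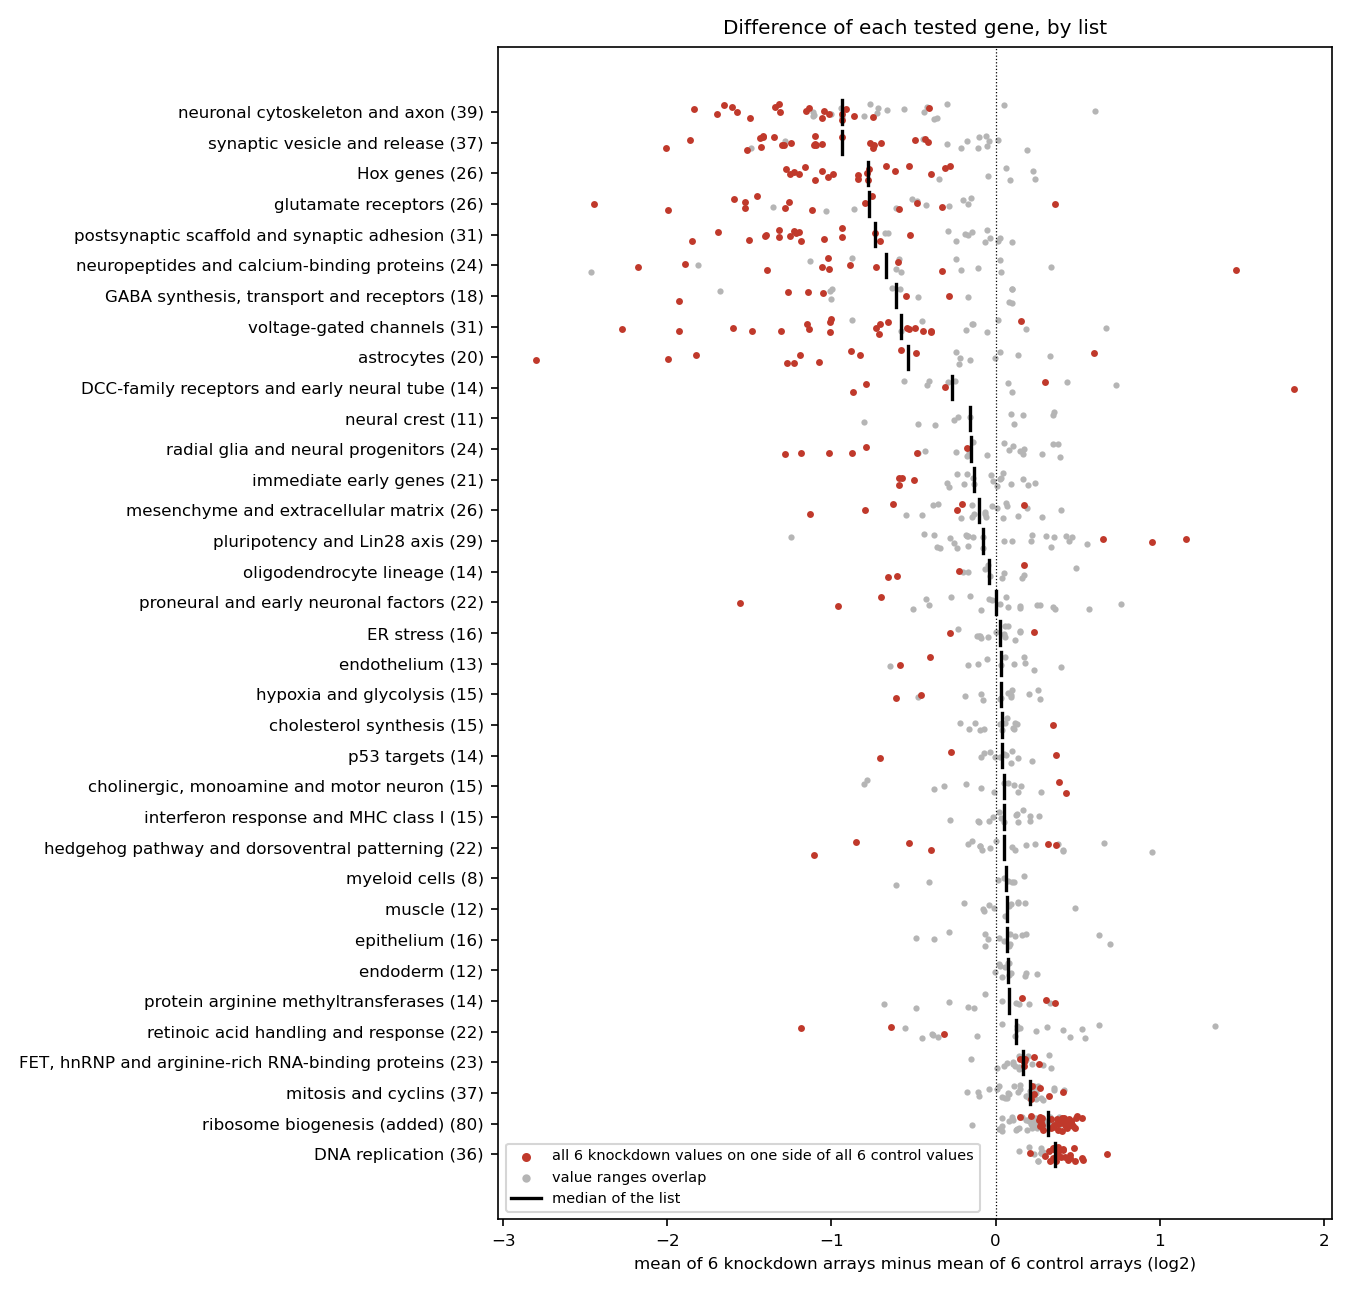
Pooled knockdown minus control difference (log2) of every tested gene of 35 lists, ordered by the list median (black bars); red points are separated genes and the number of tested genes is in brackets. Synaptic, axonal, Hox and astrocyte lists lie to the left and DNA replication, at a median of 0.36, farthest to the right.

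Hox genes, which set position along the body axis, were lower in all clusters. Of 37 measured genes 26 passed the level filter and were tested. Among the 26 tested, 20 were lower and all 20 were separated (76.9%, against 9.49% of all genes). The median was -0.78. Hoxa5 read 5.91 to 6.41 (median 6.32) against 7.06 to 7.91 (median 7.51), with -1.28 ± 0.14 (limma adjusted p = 6.2e-05), and Hoxb5 was lower by 1.23 and Hoxd4 by 1.16. All 4 clusters took part, with 5 of 8 tested genes separated in cluster a, 7 of 8 in b, 5 of 5 in c and 3 of 5 in d. Of paralogs 1 to 6, 14 of 16 were separated lower, with a median of -0.92. Of paralogs 7 to 13, 6 of 10 were, with a median of -0.34. The difference between paralog groups was not tested. Hoxb1 and Hoxd11 were higher, by 0.24 and 0.23, with overlapping arms.

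Retinoic acid genes, which act upstream of Hox genes, were split. Of 22, 8 were higher and 8 lower, against 19.4% and 19.3% of all genes. The binding protein gene Crabp2 was higher by 1.34 ± 0.22 (limma adjusted p = 0.00061) and the degrading enzyme gene Cyp26b1 by 0.53, while the receptor genes Rara and Rarb were lower by 0.38 and 0.35. The separated members were Tshz1, Tgm2 and Stra6, all lower, where 9.49% of all genes were separated lower and 7.06% higher. Without siSCR replicate 1, 5 were separated lower and 3 higher. Crabp2 arms overlapped, at 7.56 to 9.03 against 6.45 to 8.03.

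The hedgehog and dorsoventral patterning list was mixed. Of 22 genes 8 were higher and 4 lower, against 19.4% and 19.3% of all genes. Separated were 2 higher and 4 lower, against 7.06% and 9.49%, and the median was 0.05. Shh, the ligand of the floor plate, read 6.87 to 7.22 (median 7.03) against 7.67 to 8.30 (median 7.85), with -0.85 ± 0.07 (limma adjusted p = 1.88e-05). Hhip and the receptor gene Ptch1, both known targets and inhibitors of the pathway, were separated lower by 1.104 and 0.53. Smo, the signal transducer that Ptch1 holds in check, was separated higher by 0.37, at a margin that rounds to 0, as was the co-receptor gene Gas1 by 0.32. The dorsal factors Pax3 (0.95), Pax7 (0.41) and Gli3 (0.66) were higher but not separated, and the target gene Gli1 did not pass (-0.04).

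Among lists for other cells and states, to be read against 19.4% of all genes higher and 19.3% lower, mesenchyme had 9 of 26 lower and 2 higher, led by Dcn, a matrix proteoglycan, at 6.64 to 7.96 against 8.33 to 8.73. Immediate early genes had 9 of 21 lower and 2 higher, and Jun, Jund, Fos and Ier3 were separated. Neural crest (5 of 11 lower, 2 higher), endothelium (3 of 13 lower, 2 higher), endoderm (3 of 12 higher), epithelium (2 of 16 higher, 1 lower), muscle (3 of 12 higher), interferon response (1 of 15 higher), cholesterol synthesis, ER stress, hypoxia and p53 target lists had medians between -0.15 and 0.08. The myeloid list had 8 tested genes, 1 lower, and its markers Ptprc, Csf1r and Aif1 lay below the level filter. Fas, a death receptor among the p53 targets, was separated lower by 0.70.

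**Figure D5:**
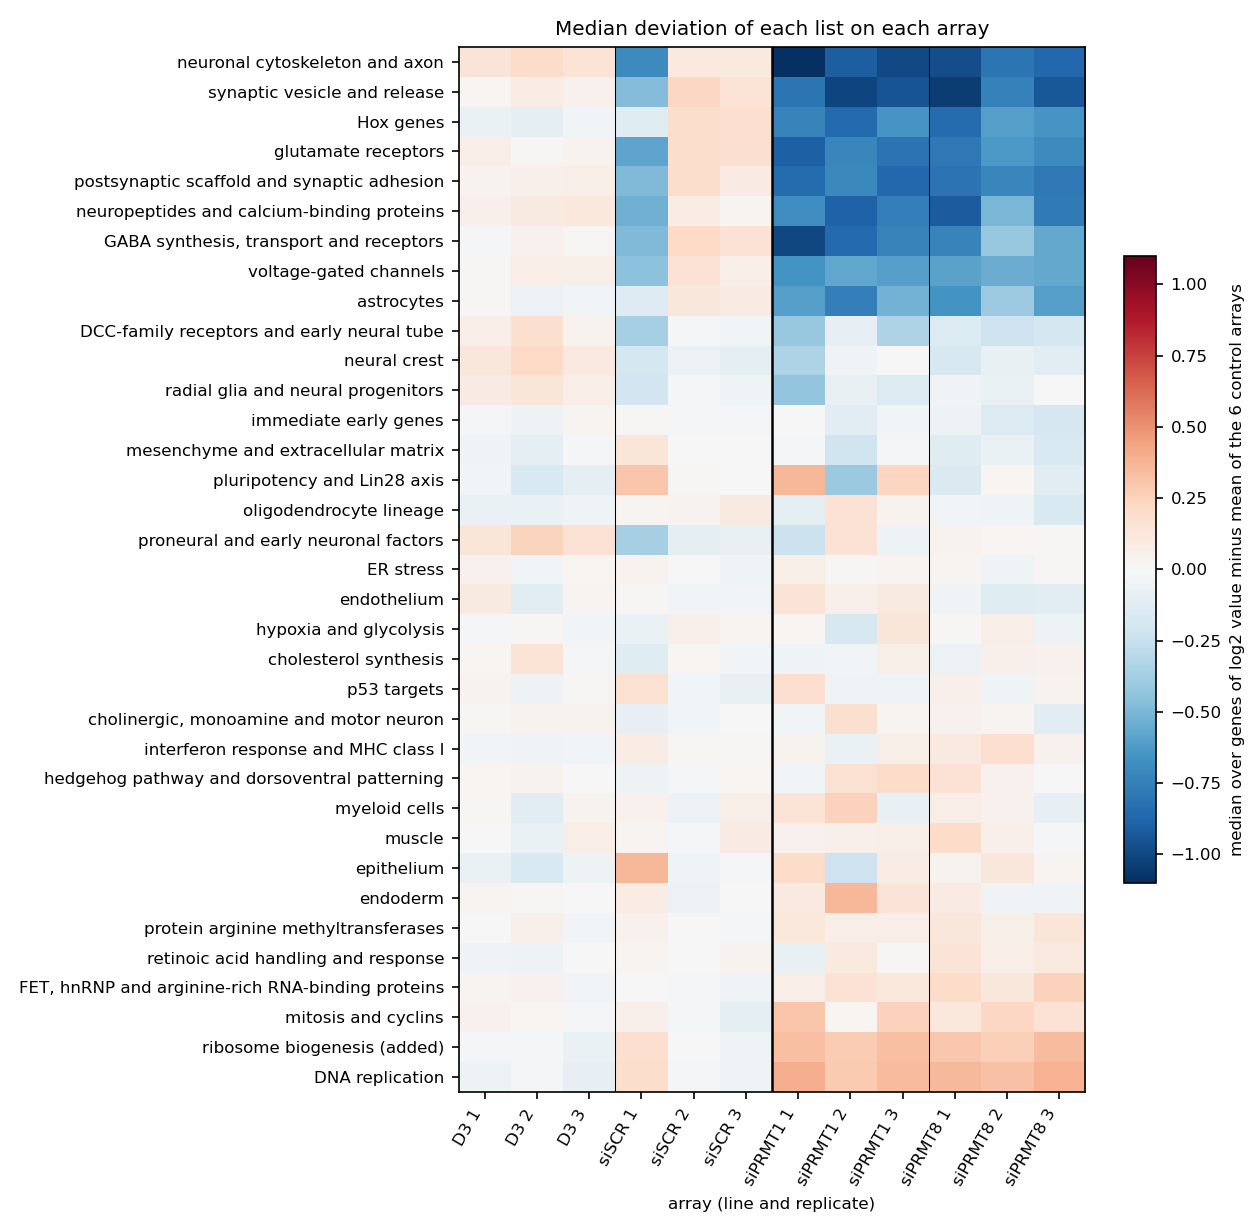
Median over the tested genes of each list of the log2 value minus the mean of the 6 control arrays, for the 12 arrays; blue is lower and red higher. On siSCR replicate 1 the axon list lies at -0.70 and the Hox list at -0.13, against -0.81 or less and -0.61 or less on all knockdown arrays.

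The position of siSCR replicate 1 differed between groups of genes, as the map of list medians by array shows. For axon, vesicle and postsynaptic lists it lay at -0.70, -0.47 and -0.48, partway to the knockdown arrays. For GABA and neuropeptide lists it lay at -0.488 and -0.528, within the knockdown ranges of -0.998 to -0.420 and -0.914 to -0.500. For DNA replication it lay at 0.190, between the other controls (-0.093 to -0.010) and the knockdown arrays (0.292 to 0.399). For ribosome assembly it lay at 0.185, between -0.074 to -0.0075 and 0.265 to 0.348. For Hox genes and astrocytes it lay at -0.13 and -0.14, near the other controls, and the knockdown arrays lay at -0.86 to -0.61 and -0.75 to -0.40. Without this array the separated lower genes numbered 20 of 26 for Hox genes and 11 of 20 for astrocytes, the same counts as with it.

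Whether the response was shared by both knockdowns was examined within the arm. Between siPRMT1 and siPRMT8, 23 of 14953 genes differed by limma (0.154%), and 1 of the 2474 separated genes did. The rule favours genes that read alike in both knockdowns, so the latter count is a description. That gene was Jund, lower in siPRMT8 than in siPRMT1 by 0.42 ± 0.07 (limma adjusted p = 0.0417), at 7.81 to 7.89 against 8.19 to 8.34. The siPRMT8 minus siPRMT1 difference was 0.24 (95% interval -0.58 to 1.05) for Prtg, -0.08 (-0.74 to 0.58) for Serpina3n and -0.05 (-0.65 to 0.55) for Mapt. These intervals are wide, so a moderate difference between knockdowns was not detectable for such genes. Without siPRMT1 replicate 2 the differences were 0.74, -0.34 and -0.13, none of which passed, and 862 genes differed (5.76%), 47 of them separated (1.90%). Between siSCR and D3, 23 genes differed (0.154%), 2 of them separated, and 15 differed with replicate number as a block.

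A comparison free of shared arrays set siPRMT1 against siSCR and siPRMT8 against D3. In this paragraph a gene was counted as lower where every array of the knockdown line read below every array of the control line. Higher genes were counted in the same way, and limma was not used for these counts. How many genes meet this rule by chance was not estimated. Of 2209 genes lower in the former, 1785 (80.8%) were lower in the latter, where they made up 47.2% of 3783, and 25.3% of all genes were lower there. Of 2266 higher genes, 1458 (64.3%) were higher in the latter, 35.9% of 4063, where 27.2% of all genes were. With the controls exchanged, siPRMT1 against D3 and siPRMT8 against siSCR shared 1711 lower genes (55.7% of 3073 and 54.2% of 3159) and 1419 higher genes (40.4% of 3510 and 46.2% of 3072). Of all genes, 20.6% and 21.1% were lower and 23.5% and 20.5% higher in these comparisons.

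The genes just inside and just outside the rule show where it divides. Ostc and S100a13, just inside it, were higher by 0.12 and 0.14, and Micos13 and Jmjd6, just outside it, by 0.14 and 0.14. Among lower genes Phlpp1 and Ogdh, just inside, differed by 0.30 and 0.22, and the cell adhesion gene Kirrel3 and the synaptic organiser gene Cbln2, just outside, by 0.57 and 0.52. The calls for Ostc, S100a13, Micos13, Mog and Cacnb2 were lost when some single arrays were left out, and no other of the 110 genes named by the rule lost its call in that way.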

How the data were processed

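The deposited values are log2 expression values of 12 arrays, 1 per sample, as the authors gave them; their software and normalisation: not given in the sources used here. Of 35556 probe sets 21789 carried 1 gene symbol, 1621 several and 12146 none. Only the first kind was used, with the probe set of the highest mean for the 999 symbols that had more. The lowest 25% of 19938 genes by mean level (under 5.43) were left out, which left 14953.

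Group means of the 4 lines were fitted with limma 3.58.1 in R 4.3.3 on all arrays, and the mean of siPRMT1 and siPRMT8 was set against the mean of D3 and siSCR, with empirical Bayes variance and Benjamini-Hochberg adjustment over all tested genes at 0.05. Values with ± are SE. Arrays carry no counts, so their number limits the precision, no detection calls were at hand, and levels of different probe sets were not compared. Members and gene lists were chosen with earlier results of these data known, and the ribosome assembly and miRNA lists after the values had been seen. The rule for named genes took Prmt1, Prmt8, Prtg, Serpina3n and Mapt; the 10 separated genes of largest difference and the 4 of widest margin in each direction; up to 3 separated members of each list in each direction by difference; the 2 genes just inside and the 2 just outside the rule of separation; and up to 3 separated genes in each direction that differed between knockdowns. It left out predicted genes, small RNAs and olfactory or vomeronasal receptors. Every other gene named, the miRNA genes included, was chosen after its values were seen. Tested on simulated data for this pooled comparison (14953 genes), the fit called 66% of genes changed 1.25-fold, 96% at 1.5-fold and 100% at 2-fold. In that run 8 unchanged genes were called and 32 were separated. The simulated noise was drawn independently for each gene, without differences between lines or shifts shared across an array. These counts therefore do not measure false calls on the real arrays. Alternatives were other controls, scalings, filters, variance models, a block for replicate number, 1 mean value per line and left-out arrays. As a check of pairing, deviations from line means were correlated between arrays of the same number: all 3 pairs exceeded 0.1 for D3 with siSCR (0.107 to 0.194), and for no other pair of lines did all 3.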

Additional observations from a re-analysis of the deposited data

Results flagged for a closer look

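In 33 of 220 tests of an arm of 6 arrays, 1 array lay farther from the rest than Dixon's 95% limit allows. The tests share arrays, and most of their genes were chosen by the same values. Their number can therefore not be set against the 5% that chance gives in independent tests. In 30 of the 33 tests the array was siSCR replicate 1, which lay toward the knockdown arm. Its log2 values for genes of neurons and glia were Mapt (7.82), Cacng3 (6.475), Tmem130 (8.352), Scn2a (7.981), Kcnip1 (6.596), Necab1 (7.909), Pcp4 (9.075), Vsnl1 (8.469), Rab3c (7.519), Gria2 (8.874), Chl1 (7.571), L1cam (7.904), Ncam2 (6.9), Syt4 (8.081), Sv2a (8.087), Lrrtm2 (7.384), Lrrc4c (7.262), Slc6a11 (8.064), Gabra2 (5.957), Scn3b (8.659), Cacnb4 (6.461), Reln (7.704), Scg3 (7.409), Myt1l (7.074) and Cspg5 (6.94). The same held for Hoxb3 (8.746), Ntn1 (9.405), Prmt5 (10.694), Jun (8.32) and Spon1 (9.529). On siPRMT1 replicate 2, Mog read 5.878, above the other knockdown arrays, and Pole2 read 8.842, below them. On D3 replicate 2, Unc5b read 5.578, apart from the other controls.

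Between knockdowns, the siPRMT8 minus siPRMT1 difference was 1.49 for Prmt1 (limma adjusted p = 2.36e-05), the targeted gene of siPRMT1, and -0.42 for Jund (limma adjusted p = 0.0417).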

How the results depend on the processing

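The pooled comparison called 5790 genes. It gave 2476 with 1 mean value per line, 185 when a change had to exceed 1.5-fold, and 4842 to 6418 with single arrays left out. The 2474 separated genes became 4997 with D3 as the only control, 2520 to 3976 with single arrays left out and 4752 without siSCR replicate 1 and siPRMT1 replicate 2. With fewer arrays this count can only stay or rise, so these gains do not measure how stable it is. Differences between siPRMT1 and siPRMT8, 23 genes, became 1046 with array weights, 1 past 1.5-fold, 2 to 862 with single arrays left out and 1901 without both arrays that stood apart. Differences between siSCR and D3, also 23, became 12 with the lowest 50% of genes left out, 279 with array weights, 0 past 1.5-fold by limma's treat, 2 to 60 with single arrays left out and 152 without both arrays. With replicate number as a block, the pooled comparison called 5436 genes, the knockdowns differed in 14 and the controls in 15; 8 of 18 pairs correlated over 0.1, 4 of 12 arrays matched their own number best, and only D3 with siSCR had all 3 pairs over 0.1. Over the 110 genes named by the rule no setting reversed a direction; 1283 of 1320 comparisons with a single array left out kept their call, and 1399 of 1517 under the other settings. With 1 mean value per line 22 of these genes lost their call. The causes were not tested.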
